A study of Homo sapiens with 8 samples.

Results

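Collagen genes were examined in SH-SY5Y, a human neuroblastoma cell line labelled as neuronal progenitors. They were taken from the deposited count table as the protein-coding genes whose symbol is COL, a number, A and a number, which gave 44 of 67060 genes (19920 of them protein-coding). The 4 libraries called ERRg here came from cells given BioID-Flag-ERRg adenovirus, in which BioID, a ligase that biotinylates nearby proteins, is fused to Flag-tagged estrogen-related receptor gamma. The 4 libraries called GFP came from cells given BioID-GFP-NLS adenovirus, in which the same ligase is fused to GFP, green fluorescent protein, sent to the nucleus by a localisation signal (NLS). In both groups 0.5 ul of virus was added at 80% confluence and RNA was taken after 48 h, so both groups carry an adenovirus and a BioID fusion, and cells without virus were not analysed here. Ribosomal RNA was depleted before directional libraries were made. All libraries come from 1 cell line, and the labels do not say that the 4 replicates were separate cultures, so each p-value reflects spread among these libraries that may be technical.

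Collagens are secreted or membrane-bound proteins of 3 chains wound around each other, each chain built on repeats of glycine followed by other residues, often proline. Fibrillar collagens form the fibrils of connective tissue, basement membrane (type IV) collagens form sheet-like networks under epithelia and around nerve and muscle, FACIT collagens (fibril-associated collagens with interrupted triple helices) sit on fibril surfaces, and type VI collagen forms beaded filaments. Chains are modified and folded in the endoplasmic reticulum before secretion. The coding sequences in GENCODE release 29 show these designs: the longest unbroken run of glycine triplets was 338 in COL1A1, COL5A1 and COL11A1 and 343 in COL3A1, but 40 in COL4A1 and 66 in COL4A2, whose repeats are broken into 22 and 23 runs of at least 6 triplets.

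Each ERRg library had 21.02 to 23.01 M reads in genes, and each GFP library 27.67 to 35.52 M. ESRRG, the gene encoding the delivered receptor, reached 808.5 ± 73.2 CPM (counts per 1 M gene reads, scaled by TMM) in the ERRg libraries, against 34.9 ± 2.34 CPM in the GFP libraries (SD, n = 4 each). Of all reads, 45.5% to 48.3% lay outside annotated exons in ERRg, against 16.2% to 24.2% in GFP, so this share separates the groups. The ERRg libraries fell into pairs: the chi-square of counts per gene was 2.9 between libraries 1 and 2 and 5.02 between libraries 3 and 4, against 9.87 to 22.4 across the pairs. Of 10 neuroblastoma markers, 8 could be tested and TH was listed at 0 in all libraries. The markers summed to 561.1 to 630.4 CPM in ERRg and 880.5 to 994.1 CPM in GFP. In the TMM fit described below, 0 of the 8 were higher and 6 lower, beside 38.8% higher and 35.9% lower of all genes tested. With offsets for GC content, transcript length and gene span, 3 were higher and 2 lower, beside 35.8% each way of coding genes. The 10 fibroblast markers, of which 8 could be tested and TWIST2 was at 0, summed to 414.4 to 426.6 CPM in ERRg and 571.7 to 650.1 CPM in GFP. Of these 8, 2 were higher and 5 lower in each fit, but they were not the same genes. FAP was higher in both fits, and PDGFRA, PDGFRB, DCN and THY1 were lower in both. LUM was higher in the TMM fit alone, and PRRX1 was lower with offsets alone. TWIST1 changed from lower (log2 fold change -0.48) to higher (0.34 with offsets). The 7 Schwann cell markers summed to 3.45 to 4.55 CPM in ERRg and 4.71 to 5.33 CPM in GFP with CDH19 at 0, and 6 endothelial markers summed to 1.39 to 2.69 CPM in ERRg and 1.55 to 2.1 CPM in GFP. These bulk libraries cannot tell apart fewer cells of a type and less RNA per cell, and the part of these values in the collagen results was not tested.

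Collagen mRNA was a small and uneven fraction of the transcriptome, dominated by 1 gene. Collagen genes held 0.186%, 0.184%, 0.196% and 0.198% of gene reads in the 4 ERRg libraries, against 0.245%, 0.245%, 0.256% and 0.252% in the 4 GFP libraries. The groups did not overlap, and the mean share was lower in ERRg. COL3A1, the single chain of type III collagen, took 48.6% ± 0.756 of collagen reads in ERRg and 49.8% ± 1.77 in GFP (SD, n = 4 each). COL5A1, a chain of the type V collagen that is built into the core of type I fibrils, took 6.77% ± 0.648 in ERRg and 12% ± 0.754 in GFP. COL11A1, a chain of cartilage type XI collagen, took 9.32% ± 1.49 in ERRg and 3.58% ± 0.241 in GFP. COL19A1, a FACIT collagen, took 6.36% ± 0.663 in ERRg and 2.03% ± 0.228 in GFP. FACIT genes together held 0.0143% ± 0.000871 of gene reads in ERRg and 0.00696% ± 0.000383 in GFP. Most of these reads were of COL19A1, so this is not a trait of the class. The next FACIT gene took 0.657% of collagen reads in ERRg (COL14A1) and 0.255% in GFP (COL9A2). Fibrillar collagens held 0.133% ± 0.00422 of gene reads in ERRg and 0.178% ± 0.00564 in GFP.

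Levels per length, in TPM (transcripts per 1 M), gave the order of the genes within each group. In ERRg the order was COL3A1 at 440.3 TPM, COL6A1 at 83.6, COL11A1 at 63.3, COL19A1 at 46.1, COL6A2 at 43.8 and COL5A1 at 37.3. In GFP it was COL3A1 at 487.7 TPM, COL6A1 at 96.4, COL6A2 at 82.1, COL5A1 at 70.8, COL1A1 at 27.8 and COL11A1 at 26.3. COL11A1 was therefore the third collagen in ERRg and the sixth in GFP, and COL19A1 the fourth in ERRg and the eighth in GFP. Neighbours in these orders such as COL19A1 and COL6A2 in ERRg (SD 5.07 and 5.45 TPM) or COL1A1 and COL11A1 in GFP (SD 1.87 and 4.25 TPM) did not differ beyond their spread. TPM was used only for order within a group, since it is scaled differently from the TMM values that the tests use.

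**Figure D1:**
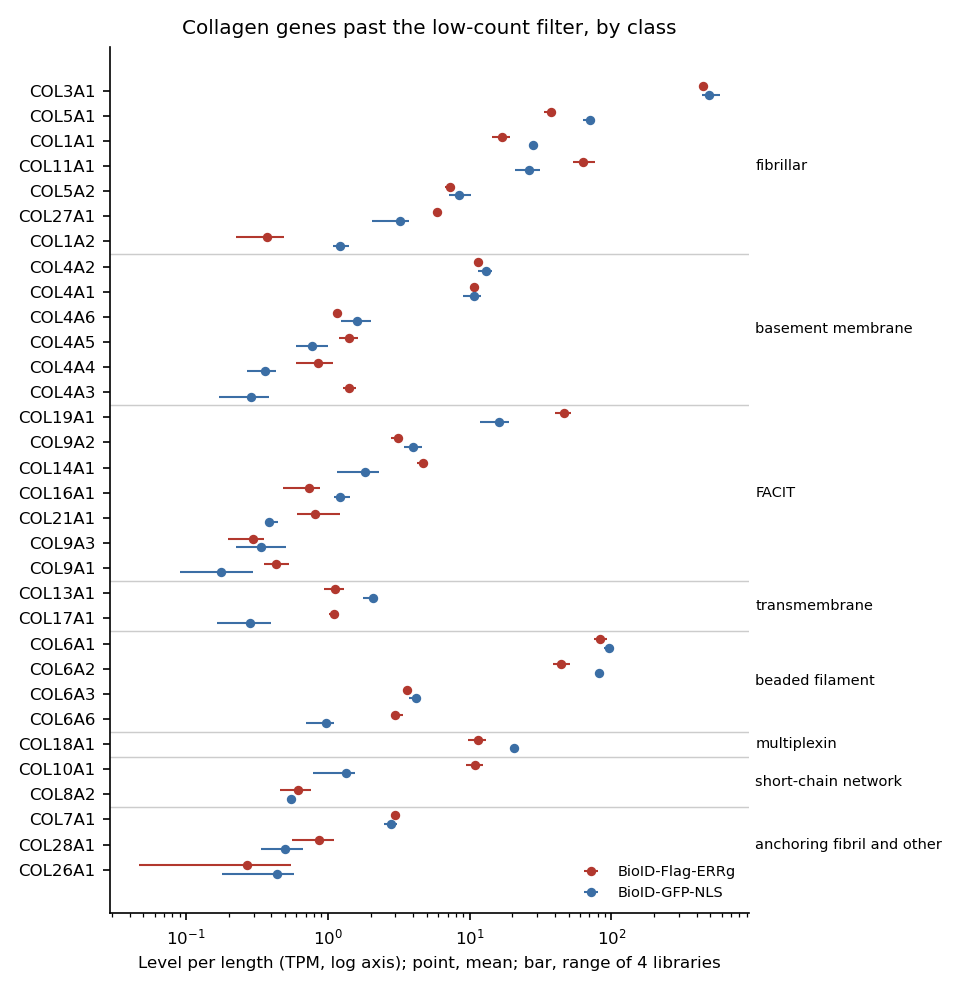
Levels per length of the 32 collagen genes past the low-count filter, in TPM on a log axis, with genes grouped by class; points are means and bars the range of 4 libraries, ERRg in red above GFP in blue. COL3A1 stands above every other collagen in both groups. COL11A1, COL19A1 and COL10A1 rank 3, 4 and 10 within ERRg and 6, 8 and 19 within GFP. TPM values are not compared between the groups.

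Of the 44 collagen genes, 42 had at least 1 read and 32 passed the low-count filter. With edgeR's quasi-likelihood test at an adjusted p under 0.05, 8 of the 32 were higher in ERRg, 18 were lower and 6 were not called. Among all 21993 genes tested 38.8% were higher and 35.9% lower, so 25.0% of the tested collagens higher and 56.2% lower stand beside that background. The median log2 fold change was -0.74 over the 32 collagens and 0.09 over all genes tested. The split depended on the scaling. Upper-quartile factors gave 12 higher and 16 lower, and library totals 12 higher and 15 lower. These scalings moved the median of all genes up by 0.30 and 0.40. A fit of coding genes alone gave 12 higher and 16 lower. The share of all genes called under these alternatives was not computed, so their counts have no background beside them. Without ERRg libraries 1 and 2 the counts were 7 higher and 16 lower, and without ERRg libraries 3 and 4 they were 9 higher and 18 lower.

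Several collagens changed their call when transcript properties were corrected for, so fold changes are also given from a second edgeR fit with offsets for GC content, transcript length and gene span, called the offset fit. It gave 15 collagens higher and 10 lower of 32, against a background of 35.8% higher and 35.8% lower of 13413 coding genes, and a median of 0.27 over the collagens. All 8 collagens higher in the first fit were higher in the offset fit, and 10 of the 18 lower ones were lower in both. Of the other 8, 5 were not called with offsets and 3 (COL6A1, COL7A1 and COL9A2) changed to higher. With the share of reads outside exons as a covariate, 1 collagen was higher and 0 were lower at an adjusted p under 0.05 (2 lower at an unadjusted p under 0.05), beside 0.0273% higher and 0.00909% lower of all genes in edgeR, so in that fit the groups and the share cannot be told apart.

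**Figure D2:**
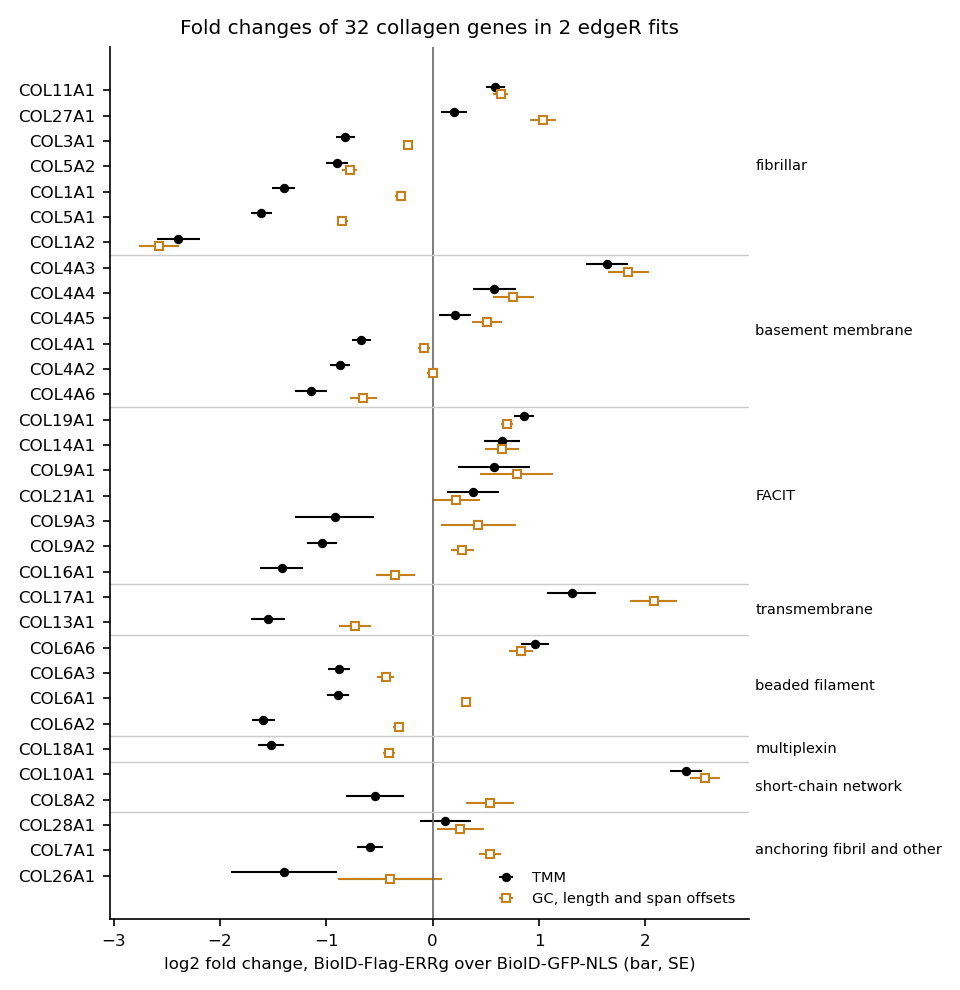
Log2 fold changes, ERRg over GFP, of the 32 tested collagen genes by class, from the TMM fit (filled circles) and from the fit with GC, length and span offsets (open squares), with SE bars. COL10A1 lies furthest to the right and COL1A2 furthest to the left in both fits, while COL9A2, COL9A3, COL6A1, COL7A1 and COL8A2 lie below 0 in the TMM fit and above 0 with offsets.

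Among fibrillar collagens, 1 of the 7 tested genes was higher in ERRg, 5 were lower (71.4%, beside 35.9% of all genes tested) and 1 was not called. The offset fit kept the same 5 lower, beside 35.8% lower of coding genes. Type I collagen, the main collagen of bone, skin and tendon, is made of COL1A1 and COL1A2 chains. COL1A1 (ENSG00000108821.14, chromosome 17, 50183289 to 50201632 on GRCh38, minus strand) had 36.4, 40.4, 53.3 and 50.3 CPM in the ERRg libraries, against 109.8, 131.0, 114.1 and 119.7 CPM in the GFP libraries. The groups lay far apart, and COL1A1 fell by 1.40 on the log2 scale (SE 0.11, edgeR adjusted p = 8e-10), or by 0.30 in the offset fit (adjusted p = 2.82e-05). The share of all genes whose groups do not overlap was not computed, so such gaps are not read as particular to collagens. COL1A2 (ENSG00000164692.18, chromosome 7, 94394561 to 94431232, plus strand) had 34, 26, 34 and 17 reads in the ERRg libraries and 137, 199, 169 and 135 reads in the GFP libraries. It was the collagen with the largest fall, 2.39 on the log2 scale (SE 0.20, edgeR adjusted p = 1.63e-09), and it fell by 2.57 with offsets. The longest COL1A2 transcript has 41.7% GC, the lowest of the tested collagens.

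COL3A1, which co-assembles with type I collagen in vessels and other elastic tissues (ENSG00000168542.16, chromosome 2, 188974320 to 189012746, plus strand), had 775.9, 780.1, 819.0 and 859.3 CPM in ERRg, against 1349.4, 1491.9, 1518.9 and 1367.1 CPM in GFP. It fell by 0.82 (SE 0.09, edgeR adjusted p = 5.46e-08), and by 0.23 with offsets. COL5A1 had 95.9, 104.1, 127.9 and 123.7 CPM in ERRg, against 317.3, 357.8, 327.0 and 372.6 CPM in GFP, and fell by 1.61 (SE 0.10, edgeR adjusted p = 8.97e-11) and by 0.85 with offsets. Each of these genes had every ERRg library below every GFP library. COL5A2, the partner chain of COL5A1, fell by 0.90 (SE 0.10, edgeR adjusted p = 3.9e-08) and by 0.78 with offsets. COL11A1 (ENSG00000060718.22, chromosome 1, 102876467 to 103108872, minus strand) went the other way, with 180.3, 155.8, 137.2 and 144.4 CPM in ERRg, against 99.2, 96.8, 108.8 and 106.5 CPM in GFP. Its groups did not overlap, ERRg libraries 1 and 2 were above libraries 3 and 4, and it rose by 0.59 on the log2 scale (SE 0.09, edgeR adjusted p = 1.18e-05), or 0.64 with offsets.

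COL27A1, a fibrillar collagen with a shorter triple helix (its longest run was 217 triplets), was at 22.0 ± 1.14 CPM in ERRg, against 19.2 ± 3.58 CPM in GFP (SD, n = 4 each). It was not called (log2 fold change 0.20, edgeR adjusted p = 0.133), but was higher in the offset fit (1.04, adjusted p = 4.05e-07). The other fibrillar genes were too low to test. COL24A1 had 5 to 17 reads per ERRg library and 4 to 14 per GFP library, COL2A1, the type II collagen of cartilage, had 1 to 2 in ERRg and 1 to 5 in GFP, and COL5A3 had 0 in ERRg and at most 2 in GFP. COL11A2, a partner chain of COL11A1, was listed at 0 in all 8 libraries. Among 55 coding genes in a window of 1000000 bases around COL11A2, 35 (63.636%) were listed at 0 in all libraries, against 208 of 984 (21.138%) on the rest of chromosome 6, so its 0 does not show that the RNA was absent.

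**Figure D3:**
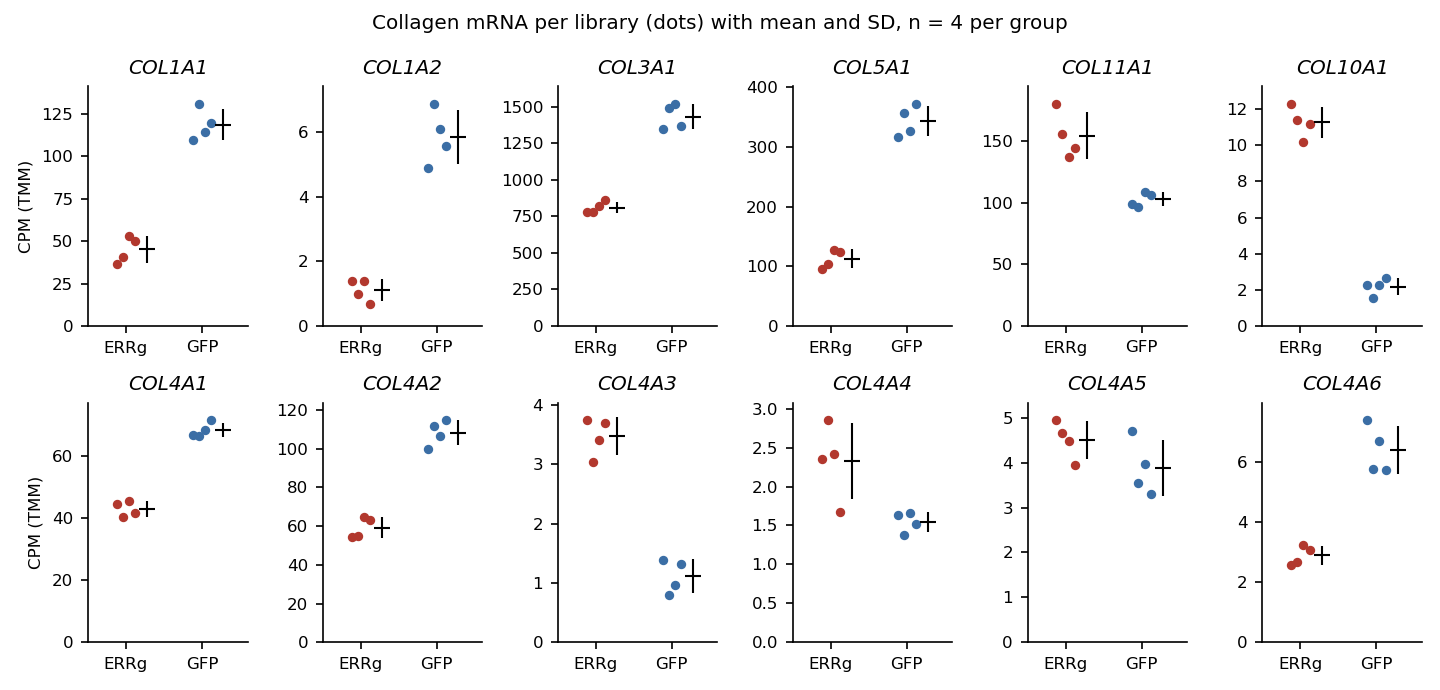
CPM (TMM-scaled, axes from 0) of 6 collagens with distinct patterns and of the 6 type IV genes in each library, ERRg in red to the left of GFP in blue, with mean and SD (n = 4 each). COL1A1, COL1A2, COL3A1, COL5A1, COL4A1, COL4A2 and COL4A6 are lower in every ERRg library than in any GFP library, COL11A1, COL10A1, COL4A3 and COL4A4 are higher, and COL4A5 overlaps.

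The 6 type IV genes lie as 3 pairs that are transcribed away from each other from a shared stretch of DNA, so a pair's promoters are partly the same sequence. Their RefSeq promoter windows (GRCh38.p14, 250 bases before to 50 after the start, each read in its gene's direction) are shown because COL4A5 and COL4A6, which share such a stretch, differed in their calls, while COL4A1 and COL4A2 were both lower in the TMM fit. Capitals mark the bases that both windows of a pair hold. The windows are chr13:110307108-110307407 (minus strand) for COL4A1, chr13:110307034-110307333 (plus) for COL4A2, chr2:227164374-227164673 (plus) for COL4A3, chr2:227164156-227164455 (minus) for COL4A4, chrX:108439588-108439887 (plus) for COL4A5 and chrX:108439409-108439708 (minus) for COL4A6.
COL4A1: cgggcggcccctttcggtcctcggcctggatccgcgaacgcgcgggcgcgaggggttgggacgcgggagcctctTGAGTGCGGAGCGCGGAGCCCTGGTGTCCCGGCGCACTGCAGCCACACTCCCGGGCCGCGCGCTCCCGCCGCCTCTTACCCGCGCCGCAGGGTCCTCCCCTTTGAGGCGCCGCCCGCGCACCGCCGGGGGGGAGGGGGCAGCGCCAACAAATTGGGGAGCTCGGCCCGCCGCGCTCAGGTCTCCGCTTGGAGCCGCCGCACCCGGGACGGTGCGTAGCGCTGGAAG
COL4A2: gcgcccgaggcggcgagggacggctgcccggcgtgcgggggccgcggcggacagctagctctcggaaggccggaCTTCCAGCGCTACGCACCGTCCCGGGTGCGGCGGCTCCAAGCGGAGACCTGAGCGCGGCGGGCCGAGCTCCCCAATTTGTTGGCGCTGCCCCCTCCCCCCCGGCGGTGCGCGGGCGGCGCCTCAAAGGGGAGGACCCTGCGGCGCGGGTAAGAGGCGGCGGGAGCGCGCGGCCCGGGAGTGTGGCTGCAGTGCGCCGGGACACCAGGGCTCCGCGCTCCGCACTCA
COL4A3: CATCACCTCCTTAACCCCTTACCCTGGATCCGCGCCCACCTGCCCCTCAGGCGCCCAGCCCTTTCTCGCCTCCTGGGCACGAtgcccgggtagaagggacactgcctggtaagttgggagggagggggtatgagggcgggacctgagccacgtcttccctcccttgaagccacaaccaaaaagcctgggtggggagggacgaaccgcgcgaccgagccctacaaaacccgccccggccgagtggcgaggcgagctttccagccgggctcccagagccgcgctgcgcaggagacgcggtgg
COL4A4: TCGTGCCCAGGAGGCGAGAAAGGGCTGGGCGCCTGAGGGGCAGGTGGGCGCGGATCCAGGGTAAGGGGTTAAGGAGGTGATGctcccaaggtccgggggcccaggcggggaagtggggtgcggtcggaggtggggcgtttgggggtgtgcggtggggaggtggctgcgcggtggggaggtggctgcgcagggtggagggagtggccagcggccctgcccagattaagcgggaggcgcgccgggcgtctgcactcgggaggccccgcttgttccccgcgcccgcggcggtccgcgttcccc
COL4A5: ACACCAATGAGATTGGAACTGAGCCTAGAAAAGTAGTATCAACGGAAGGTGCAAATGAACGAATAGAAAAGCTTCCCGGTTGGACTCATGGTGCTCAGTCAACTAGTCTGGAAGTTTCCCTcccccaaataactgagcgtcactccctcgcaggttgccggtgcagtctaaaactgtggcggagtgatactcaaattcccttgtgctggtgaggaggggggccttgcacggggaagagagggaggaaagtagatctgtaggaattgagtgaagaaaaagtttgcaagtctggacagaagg
COL4A6: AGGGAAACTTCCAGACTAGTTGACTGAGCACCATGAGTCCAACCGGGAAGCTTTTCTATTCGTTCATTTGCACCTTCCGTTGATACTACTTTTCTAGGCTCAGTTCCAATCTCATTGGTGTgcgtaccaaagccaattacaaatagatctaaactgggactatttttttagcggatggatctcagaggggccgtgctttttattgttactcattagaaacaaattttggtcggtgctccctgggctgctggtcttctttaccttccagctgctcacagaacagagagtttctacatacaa
The COL4A1 and COL4A2 starts are 127 bases apart and their windows share 226 bases, those of COL4A3 and COL4A4 are 419 bases apart and share 82, and those of COL4A5 and COL4A6 are 380 bases apart and share 121. The GENCODE start of COL4A2 lies 1472 bases from its RefSeq start.

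The pair of the common basement membrane network, COL4A1 and COL4A2, was lower in ERRg. COL4A1 had 44.4, 40.2, 45.4 and 41.5 CPM in ERRg, against 66.8, 66.5, 68.4 and 71.4 CPM in GFP, and COL4A2 had 54.6, 54.7, 64.6 and 63.0 CPM in ERRg, against 100, 111.8, 106.5 and 114.6 CPM in GFP. Neither gene's groups overlapped, and the falls were 0.67 (SE 0.09, edgeR adjusted p = 5.4e-07) for COL4A1 and 0.87 (SE 0.09, adjusted p = 3.16e-08) for COL4A2. In the offset fit neither was called (adjusted p = 0.288 for COL4A1 and 0.981 for COL4A2). COL4A3 and COL4A4, chains of the specialised membrane of kidney and lung, were higher. COL4A3 had 91, 81, 83 and 91 reads in ERRg and 39, 23, 27 and 32 in GFP, a log2 fold change of 1.64 (SE 0.20, edgeR adjusted p = 3.76e-07). COL4A4 had 2.35, 2.85, 2.42 and 1.67 CPM in ERRg, against 1.64, 1.38, 1.66 and 1.52 CPM in GFP, so that its lowest ERRg library was barely above the highest GFP library. It was called higher (log2 fold change 0.58, SE 0.20, edgeR adjusted p = 0.0134); without ERRg library 2 it was 0.46 (adjusted p = 0.0761), without GFP library 2 0.48 (adjusted p = 0.0535), and without ERRg libraries 1 and 2 0.38 (adjusted p = 0.208). Exons of COL4A3 overlap MFF-DT on the other strand, which had 3.16 ± 0.559 CPM in ERRg and 1.56 ± 0.287 CPM in GFP, and the strand setting of the counting is not given in the sources used here.

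COL4A5 and COL4A6, the X-linked pair, parted. COL4A6 had 2.59, 2.67, 3.24 and 3.09 CPM in ERRg, against 7.39, 5.76, 6.69 and 5.72 CPM in GFP, and fell by 1.14 (SE 0.15, edgeR adjusted p = 8.29e-07) and by 0.65 with offsets. COL4A5 had 4.94, 4.66, 4.47 and 3.94 CPM in ERRg, against 4.71, 3.55, 3.96 and 3.29 CPM in GFP. Its groups overlapped and it was not called (log2 fold change 0.21, edgeR adjusted p = 0.213), although the offset fit called it higher (0.51, adjusted p = 0.0033). Of the 6 basement membrane genes, 2 (33.3%) were higher, 3 lower (50%) and 1 was not called, beside 38.8% higher and 35.9% lower of all genes tested.

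FACIT collagens were mixed: of 7 tested, 2 were higher, 3 were lower and 2 were not called. The shares, 28.6% higher and 42.9% lower, are near the 38.8% and 35.9% of all genes tested. The edgeR offset fit gave 4 FACIT collagens higher and 0 lower (0 also at an unadjusted p under 0.05), beside 35.8% each way of coding genes. COL19A1, described in basement membrane zones, had 114.6, 104.9, 95.9 and 106.6 CPM in ERRg, against 59.3, 50.9, 61.7 and 61.0 CPM in GFP. All 4 ERRg libraries were above the GFP libraries, and the gene rose by 0.86 on the log2 scale (SE 0.09, edgeR adjusted p = 4.67e-08), or 0.70 with offsets. Its exons overlap those of LMBRD1 on the other strand, which had 39.1 ± 2.91 CPM in ERRg and 25.1 ± 0.74 CPM in GFP. COL14A1, on chromosome 8, had 9.42, 11.4, 10.9 and 12 CPM in ERRg, against 5.96, 10.0, 7.05 and 4.65 CPM in GFP, with GFP library 2 inside the ERRg range. It was called higher (0.65, SE 0.17, edgeR adjusted p = 0.00162). COL14A1 was also the 1 collagen called higher with the covariate, at a fitted log2 fold change of 3.59 (edgeR adjusted p = 0.0231). That fit cannot tell the groups and the share of reads outside exons apart, so this value is not further evidence for the call.

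COL16A1 had 1.15, 2.14, 2.3 and 1.75 CPM in ERRg, against 4.07, 5.52, 4.07 and 6.13 CPM in GFP, and fell by 1.42 (SE 0.20, edgeR adjusted p = 2.69e-06), but was not called with offsets (adjusted p = 0.0977). Type IX collagen, which coats cartilage fibrils, has the chains COL9A1, COL9A2 and COL9A3. COL9A2 had 84, 82, 97 and 94 reads in ERRg and 186, 248, 206 and 164 in GFP, and fell by 1.04 (SE 0.14, edgeR adjusted p = 1.49e-06), while the offset fit placed it 0.28 higher (adjusted p = 0.035). COL9A3 had 6 to 12 reads in ERRg and 12 to 36 in GFP, and its call (a fall of 0.92, edgeR adjusted p = 0.0312) was lost without GFP library 2 (adjusted p = 0.167), ERRg library 1 (0.0893) or ERRg library 4 (0.0503). Exons of COL9A3 overlap TCFL5 on the other strand, at 16.9 ± 0.688 CPM in ERRg and 24.7 ± 2.25 CPM in GFP. COL9A1, with 18 to 24 reads in ERRg and 7 to 24 in GFP, and COL21A1, with 29 to 54 reads in ERRg and 27 to 38 in GFP, were not called (edgeR adjusted p = 0.135 and 0.153), but without GFP library 4 COL9A1 was called higher (0.87, adjusted p = 0.0366). COL12A1, COL20A1 and COL22A1 had at most 6 reads in any library.

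Type VI collagen forms beaded microfibrils around cells, and its 3 main chains were lower. COL6A1 had 107.1, 106.6, 139.7 and 129.7 CPM in ERRg, against 210.8, 248.8, 213.7 and 220.5 CPM in GFP, and COL6A2 had 55.5, 55.3, 77.1 and 67.5 CPM in ERRg, against 179.2, 212.4, 183.5 and 192.3 CPM in GFP. In both genes the groups lay apart and ERRg libraries 1 and 2 were the lowest. COL6A1 fell by 0.89 (SE 0.10, edgeR adjusted p = 9.67e-08), but the offset fit placed it 0.31 higher (adjusted p = 5.83e-06). COL6A2 fell by 1.59 (SE 0.11, edgeR adjusted p = 1.5e-10) and by 0.32 with offsets. COL6A3 was at 19.2 ± 1.18 CPM in ERRg, against 35.5 ± 3.89 CPM in GFP (SD, n = 4 each) and fell by 0.88 (edgeR adjusted p = 1e-07) and by 0.44 with offsets. With a GC offset alone its fall of 0.18 was not called (adjusted p = 0.0628). COL6A6, an alternative to COL6A3 in the trimer, was higher, with 7.41, 8.68, 7.72 and 7.52 CPM in ERRg, against 4.21, 3.45, 4.14 and 4.28 CPM in GFP, a log2 fold change of 0.96 (SE 0.13, edgeR adjusted p = 1.39e-06) that the offset fit gave as 0.83. COL6A5, another such chain, had 0 reads in ERRg and at most 1 in a GFP library.

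COL10A1, the short-chain collagen of hypertrophic cartilage, rose more than any other collagen. The gene (ENSG00000123500.10, chromosome 6, 116118923 to 116158747 on GRCh38, minus strand) had 298, 304, 248 and 275 reads in ERRg and 63, 44, 63 and 65 reads in GFP, or 11.3 ± 0.857 CPM in ERRg, against 2.18 ± 0.482 CPM in GFP (SD, n = 4 each). This was a 5.19-fold difference (log2 fold change 2.38, SE 0.15, edgeR adjusted p = 1e-10; 2.56 with offsets). COL10A1 lies within NT5DC1, which is transcribed from the other strand without shared exons and had 42.1 ± 4.1 CPM in ERRg and 21.7 ± 0.613 CPM in GFP. COL8A2, a short-chain collagen of the corneal endothelium, was at 0.775 ± 0.215 CPM in ERRg and 1.13 ± 0.154 CPM in GFP and was not called (edgeR adjusted p = 0.071); leaving out ERRg library 4, GFP library 1 or GFP library 3 brought it under the threshold (adjusted p = 0.0474, 0.0452 and 0.0353), and the offset fit called it higher. Its partner chain COL8A1 had at most 5 reads in a library.

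The transmembrane collagens that could be tested moved in opposite directions. COL17A1, a component of hemidesmosomes, had 47, 59, 55 and 49 reads in ERRg and 31, 17, 27 and 17 in GFP, a log2 fold change of 1.31 (SE 0.23, edgeR adjusted p = 3.46e-05), or 2.08 with offsets. COL13A1, found at neuromuscular junctions, had 48, 46, 38 and 47 reads in ERRg and 142, 153, 140 and 139 in GFP, and fell by 1.55 (SE 0.16, edgeR adjusted p = 2.03e-08) and by 0.73 with offsets. COL23A1 had at most 9 reads in a library, and COL25A1, a brain collagen, was listed at 0 in all 8, where 3 reads correspond to 0.103 to 0.123 CPM.

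COL18A1, the multiplexin that carries endostatin at its end, had 21.2, 23.2, 31.1 and 29.8 CPM in ERRg, against 68.5, 83.0, 68.6 and 82.0 CPM in GFP. It fell by 1.52 (SE 0.12, edgeR adjusted p = 5.75e-10) and by 0.41 with offsets, and ERRg libraries 1 and 2 were the lowest. With a GC offset alone its fall of 0.11 was not called (edgeR adjusted p = 0.113). Exons of COL18A1 overlap SLC19A1 on the other strand, which had 17.3 ± 3.55 CPM in ERRg and 45.9 ± 5.15 CPM in GFP. COL15A1, the other multiplexin, had at most 9 reads in a library. COL7A1, the anchoring fibril collagen of skin, had 8.43, 8.11, 10.1 and 9.19 CPM in ERRg, against 11.3, 14.0, 13.1 and 15.5 CPM in GFP. It fell by 0.59 (SE 0.12, edgeR adjusted p = 0.000194), but was 0.54 higher with offsets (adjusted p = 7.79e-05) and was not called with library totals (adjusted p = 0.182). COL26A1 had 3, 7, 12 and 1 reads in ERRg and 20, 24, 6 and 17 in GFP, and its overlapping groups were called lower (a fall of 1.40, SE 0.50, edgeR adjusted p = 0.0155). Without ERRg library 4 (adjusted p = 0.0556) or GFP library 2 (0.0504) that call was lost. COL28A1 was at 1.53 ± 0.389 CPM in ERRg and 1.41 ± 0.31 CPM in GFP and was not called (edgeR adjusted p = 0.658).

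Read ratios between chains of the same collagen type differed between ERRg and GFP in 5 of the 7 pairs compared. With 38.8% of all genes called higher and 35.9% lower, ratios of other gene pairs can differ too. Their share was not computed, so this count is not read as particular to collagen chains. A ratio of 2 genes within a library does not depend on how libraries are scaled, so the 7 pairs were those whose chains both had at least 10 reads in every library, and each was compared by an exact permutation test (two-sided, 70 arrangements, smallest possible p 0.0286). The COL1A1 to COL1A2 read ratio was 25.6, 40.6, 37.7 and 70.7 in ERRg, against 22.4, 19.0, 18.7 and 21.5 in GFP, a log2 difference of 1.00. COL4A5 to COL4A6 was 1.9, 1.74, 1.38 and 1.27 in ERRg, against 0.639, 0.618, 0.592 and 0.577 in GFP, so that COL4A5 had more reads than COL4A6 in every ERRg library and fewer in every GFP library. COL4A3 to COL4A4 was 1.59, 1.07, 1.4 and 2.2 in ERRg, against 0.849, 0.58, 0.591 and 0.867 in GFP, the same kind of inversion. The log2 differences for these were 1.36 and 1.09. COL6A1 to COL6A2 was 1.93, 1.93, 1.81 and 1.92 in ERRg, against 1.18, 1.17, 1.16 and 1.15 in GFP (log2 difference 0.70), and COL5A1 to COL5A2 fell to 6.75, 6.72, 9.1 and 8.66 in ERRg, against 12.7, 13.2, 11.2 and 13.9 in GFP (log2 difference -0.71). These 5 pairs had an exact permutation p of 0.0286, the smallest possible, and 0.04 after adjustment over the 7. COL4A1 to COL4A2 was 0.20 higher in ERRg on the log2 scale (exact permutation p = 0.0571, adjusted 0.0666), and COL6A1 to COL6A3 differed by -0.01 (exact permutation p = 0.886). The ratios are of reads, not of molecules. In the offset fit the log2 fold changes were -0.30 for COL1A1 and -2.57 for COL1A2, 1.84 for COL4A3 and 0.76 for COL4A4, 0.51 for COL4A5 and -0.65 for COL4A6, and 0.31 for COL6A1 and -0.32 for COL6A2, so these pairs stayed apart. Those of COL5A1 and COL5A2, at -0.85 and -0.78, lay close together.

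**Figure D4:**
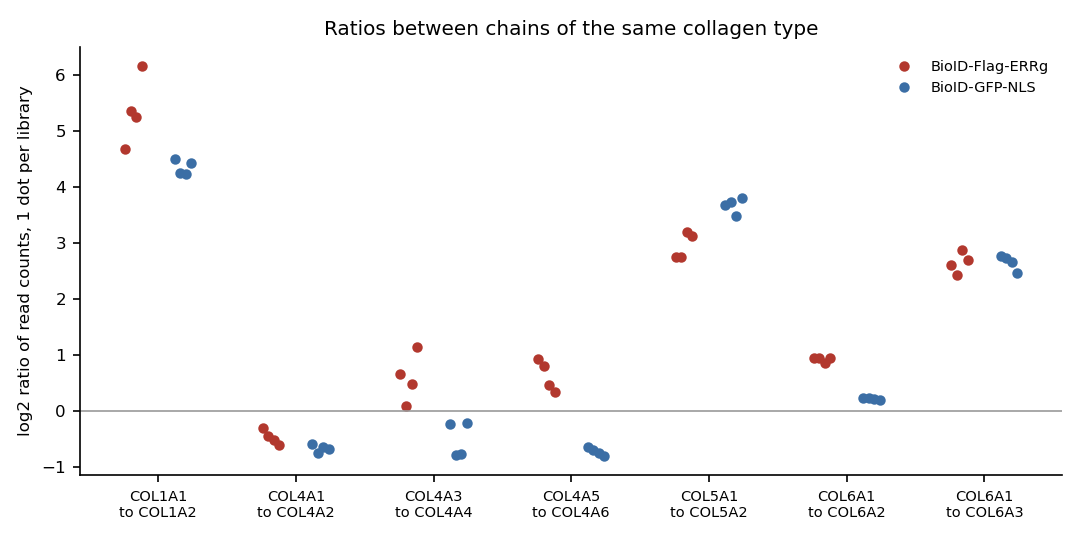
Log2 ratio of read counts between chains of the same collagen type, 1 dot per library, ERRg in red to the left of GFP in blue. The COL4A3 to COL4A4 and COL4A5 to COL4A6 ratios lie above 0 in ERRg and below 0 in GFP, and COL6A1 to COL6A3 overlaps.

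Collagens that were higher in ERRg had a lower median GC content than those that were lower. The GC content of the longest transcript had a median of 47.0% (44.7% to 55.9%) over the 8 higher genes, 61.5% (41.7% to 67.4%) over the 18 lower ones and 49.2% (44.5% to 61.7%) over the 6 not called. Across the 32 collagens, GC content and log2 fold change had a Pearson r of -0.56, and across 13426 coding genes it was -0.65. Both are descriptions across genes, which share the same 8 libraries and are not replicates. COL1A2 stood outside the relation, with the lowest GC content and the largest fall, and COL17A1 rose at 55.9% GC.

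**Figure D5:**
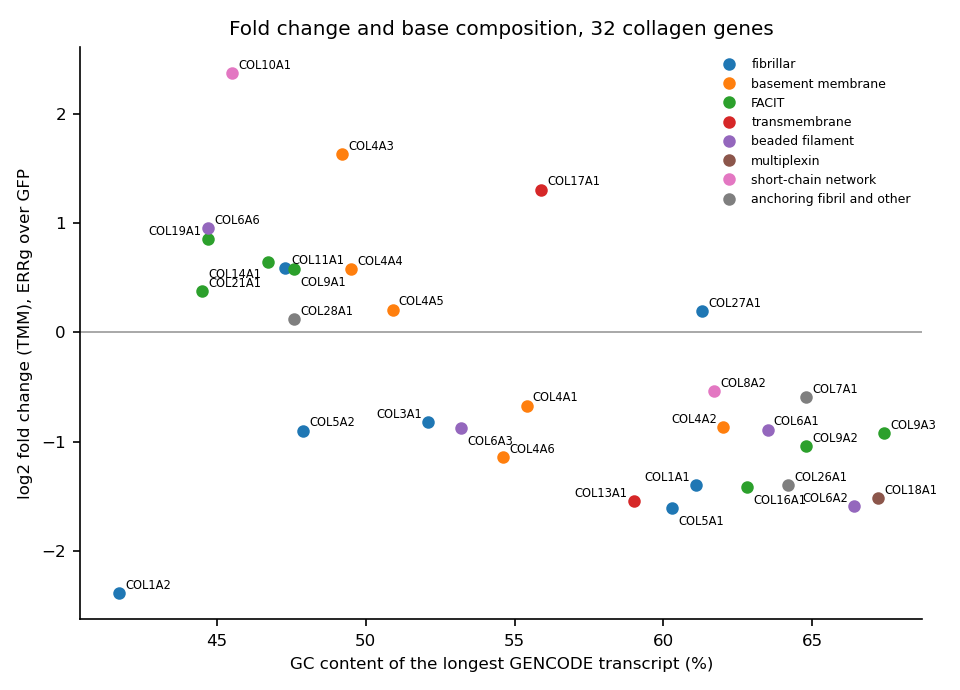
GC content of the longest GENCODE transcript (x, percent) against the TMM log2 fold change, ERRg over GFP (y), for 32 collagen genes coloured by class. The GC-rich genes to the right lie below 0 except COL27A1 at 61.3% GC, and COL1A2 at 41.7% GC lies lowest of all.

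Promoter windows were found for 32 of the 44 genes in the RefSeq table, 26 of them with a start at most 1000 bases from the GENCODE start. The starts of COL21A1, COL10A1, COL6A6 and COL9A1 lie 146514, 58397, 43157 and 19886 bases from it, and those of COL4A2 and COL11A2 1472 and 1020. COL1A1, COL1A2, COL3A1, COL5A2, COL6A1 and COL14A1 were among the genes not in the RefSeq table. The estrogen-related receptor response element TNAAGGTCA, searched on both strands, was in 0 of the 32 windows and in 263 of 27305 RefSeq windows (0.963%). Its core AGGTCA, which the full element contains, was in 1 of the 32, that of COL7A1, and in 13.9% of all windows. CCAAT was in 10 collagen windows (31.2%, against 35.7% of all), GGGCGG in 18 (56.2%, against 44.6%) and TATAAA in 5 (15.6%, against 12%). Matches are letters in a window of 300 bases, not sites shown to be bound. The windows of a higher and a lower gene show the range in composition: COL17A1 (chr10:104085831-104086130, minus strand) has 40.7% GC and 1 CG pair, and COL6A2 (chr21:46097862-46098161, plus strand) has 79.3% GC and 36 CG pairs. Capitals mark TATAAA and CCAAT in COL17A1, and TATAAA and GGGCGG in COL6A2, on either strand.
COL17A1: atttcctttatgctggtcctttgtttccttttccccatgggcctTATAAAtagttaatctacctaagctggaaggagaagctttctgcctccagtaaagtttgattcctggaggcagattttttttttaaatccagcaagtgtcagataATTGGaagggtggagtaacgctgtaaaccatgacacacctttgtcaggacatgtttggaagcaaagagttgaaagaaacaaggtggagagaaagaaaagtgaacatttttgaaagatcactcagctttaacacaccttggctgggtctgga
COL6A2: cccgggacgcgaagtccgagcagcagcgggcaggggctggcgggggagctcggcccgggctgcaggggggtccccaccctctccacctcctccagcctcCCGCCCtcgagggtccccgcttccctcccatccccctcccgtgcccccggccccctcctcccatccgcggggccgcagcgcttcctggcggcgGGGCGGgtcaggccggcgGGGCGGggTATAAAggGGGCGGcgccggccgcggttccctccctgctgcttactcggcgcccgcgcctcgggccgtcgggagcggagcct
In COL6A2 the TATAAA letters begin 32 bases before the start, between GGGCGG letters at 40 and 24 bases before it, whereas in COL17A1 they begin 206 bases before the start. The median GC content was 66.0% over the windows of 7 higher genes and 72.7% over those of 12 lower genes, and 58.3% over all windows. The higher genes include COL10A1 and COL6A6, whose windows lie far from the GENCODE starts.

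Other collagen genes also lie beside each other. COL3A1 and COL5A2 are tail to tail on chromosome 2, 19149 bases apart, and both fell. COL19A1 and COL9A1 are tail to tail on chromosome 6, 5084 bases apart; COL19A1 rose and COL9A1 was not called. COL6A1 and COL6A2 are in tandem on chromosome 21, 93046 bases apart, and both fell in the TMM fit.

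Most genes that modify collagen chains were lower in ERRg. Of 14 genes for prolyl and lysyl hydroxylation and glycosylation, 13 were tested, of which 2 were higher and 11 lower (84.6%, beside 35.9% of all genes tested), with a median log2 fold change of -1.01, against 0.09 over all genes. In the offset fit 1 was higher and 10 lower, beside 35.8% lower of all genes, with a median of -0.39. COLGALT1, which adds galactose to hydroxylysine, had 55.4, 52.5, 73.7 and 72.3 CPM in ERRg, against 176.5, 194.4, 171.8 and 179.4 CPM in GFP, and fell by 1.51 (edgeR adjusted p = 2.34e-10) and by 0.55 with offsets. PLOD1, a lysyl hydroxylase, had 99.5 ± 15.8 CPM in ERRg, against 271.7 ± 19.1 CPM in GFP (SD, n = 4 each) and fell by 1.45 (edgeR adjusted p = 2.73e-10) and by 0.48 with offsets. P3H3, of the prolyl 3-hydroxylase family, had 32.8 ± 4.66 CPM in ERRg and 89.2 ± 7.53 CPM in GFP and fell by 1.44 (edgeR adjusted p = 2.7e-10), but by only 0.17 with offsets. The 2 that rose were P4HA1 and P4HA3, catalytic subunits of prolyl 4-hydroxylase, of which P4HA3 was also higher with offsets.

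Of 12 genes for folding and export, 2 were higher (16.7%, beside 38.8% of all genes tested) and 6 lower (50%, beside 35.9%). The edgeR offset fit gave 0 higher (0 also at an unadjusted p under 0.05) and 7 lower, beside 35.8% each way of coding genes. Only SERPINH1, PDIA3 and SEC24D were lower in both fits. FKBP7, MIA3, SEC23A and TMEM39A were lower with offsets alone, and PPIB, FKBP10 and KLHL12 in the TMM fit alone. Upper-quartile scaling gave 6 higher and 5 lower of the 12 genes, and library totals 6 higher and 3 lower. No share of all genes was computed under these scalings. SERPINH1, the collagen chaperone HSP47, had 158.3, 159.0, 208.7 and 186.5 CPM in ERRg, against 467.6, 556.6, 459.9 and 478.1 CPM in GFP, and fell by 1.46 (edgeR adjusted p = 2.1e-10) and by 0.43 with offsets. FKBP10 and PPIB, prolyl isomerases, fell by 1.09 and 0.96 but were not called with offsets (adjusted p = 0.0919 and 0.382). Of 13 genes for propeptide removal and cross-linking, 12 were tested, of which 2 were higher and 9 lower (75.0%, beside 35.9% of all genes tested). With offsets 4 were higher and 6 lower, beside 35.8% each way of coding genes. TLL1 was at 0. LOXL2, a lysyl oxidase-like enzyme, had 128.2 ± 14.5 CPM in ERRg and 297.4 ± 13.5 CPM in GFP and fell by 1.21 (edgeR adjusted p = 4.76e-10) and by 0.42 with offsets. PCOLCE, an enhancer of C-propeptide removal, fell by 1.37 and was not called with offsets (adjusted p = 0.89). ADAMTS3, an N-propeptidase, had 62.7, 54.8, 47.2 and 50.7 CPM in ERRg, against 23.3, 22.4, 24.9 and 23.7 CPM in GFP, a log2 fold change of 1.19 (edgeR adjusted p = 1.28e-09), or 0.88 with offsets.

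Of 12 collagen receptor genes 8 were tested, of which 3 (37.5%) were higher and 2 (25.0%) lower, so the share higher was near the 38.8% of all genes tested and the share lower was under their 35.9%. The counts were 5 higher and 2 lower with offsets, beside 35.8% each way of coding genes. They were 5 and 2 under upper-quartile scaling and 5 and 1 under library totals, where no share of all genes was computed. DDR2, a receptor tyrosine kinase for fibrillar collagen, had 527.2, 524.5, 403.4 and 469.9 CPM in ERRg, against 240.9, 246.9, 286.5 and 264.4 CPM in GFP, a log2 fold change of 0.89 (edgeR adjusted p = 7.59e-08), or 0.43 with offsets. ITGA11, an integrin subunit that binds fibrillar collagen, had 4.35 ± 0.234 CPM in ERRg and 2.06 ± 0.678 CPM in GFP and rose by 1.09 (edgeR adjusted p = 5.23e-05). MRC2, an endocytic collagen receptor, fell by 0.92 in the TMM fit but was 0.14 higher with offsets (adjusted p = 0.0092). ITGA1 and ITGA2, other collagen-binding integrin subunits, were named after their values were seen, as were the remaining tested members ITGB1, ITGA10 and ADGRG1. ITGA1 had 97.4, 102.3, 79.3 and 89.0 CPM in ERRg, against 126.1, 149.7, 154.8 and 114.6 CPM in GFP, and fell by 0.57 (edgeR adjusted p = 6.76e-05) and by 1.24 with offsets. ITGA2 was not called (log2 fold change -0.21, edgeR adjusted p = 0.0528) but was lower with offsets, by 0.67 on the log2 scale.

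Of 12 basement membrane partners, 1 was higher (8.33%, beside 38.8% of all genes tested) and 8 lower (66.7%, beside 35.9%). The counts were 5 higher and 1 lower with offsets, beside 35.8% each way of coding genes. They were 2 and 5 under upper-quartile scaling and 4 and 4 under library totals, where no share of all genes was computed. AGRN, the proteoglycan agrin, fell by 1.57 (38.2 ± 9.6 CPM in ERRg and 113.5 ± 9.02 CPM in GFP, edgeR adjusted p = 1.58e-09) and by 0.35 with offsets. LAMA2, a laminin chain, had 18.8, 19.6, 16.0 and 15.8 CPM in ERRg, against 6.89, 4.66, 5.22 and 7.82 CPM in GFP, and rose by 1.52 (edgeR adjusted p = 7.16e-09) and by 1.41 with offsets. PXDN, the peroxidase that cross-links type IV collagen, fell by 0.65 and was not called with offsets (adjusted p = 0.47), as was the case for COL4A1 and COL4A2. Of 12 fibril-binding matrix genes 7 were tested, of which 1 was higher and 5 lower (71.4%, beside 35.9% of all genes tested). The counts were 1 and 4 with offsets, beside 35.8% each way of coding genes. They were 1 and 2 under upper-quartile scaling and 2 and 1 under library totals, again without a share of all genes. DCN, decorin, had 2.76, 2.52, 1.97 and 2.32 CPM in ERRg, against 4.99, 7.0, 6.48 and 5.47 CPM in GFP, and fell by 1.32 (edgeR adjusted p = 3.37e-07) and by 1.77 with offsets. THBS1, thrombospondin 1, fell by 0.44 (edgeR adjusted p = 8.03e-05) and by 0.24 with offsets, and TNC, tenascin C, fell by 0.54 and was not called with offsets (adjusted p = 0.942).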

How the data were processed

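RNA of 4 ERRg and 4 GFP libraries of SH-SY5Y cells was sequenced. The table that the authors deposited holds raw counts of reads by gene. The build is GRCh38, and the tools named are HTSeq 0.11.3, STAR 2.7.8a, Trim Galore 0.6.6, CASAVA and DESeq2, per the submitters' processing notes; annotation release and strand setting were not given in the sources used here. Each library's 5 lines that name no gene (41.8% to 59.3% of reads) were left out. Counts were compared with edgeR 4.0.16 in R 4.3.3 (TMM, filterByExpr, quasi-likelihood test, two-sided, Benjamini-Hochberg over all genes tested, group as sole term). In simulated counts with 100 genes changed by 1 log2 unit and 100 by 2, it called 75 and 96 of them. Of 21793 unchanged genes it called 9. The simulation had few changed genes and no GC trend, unlike these data, so it does not vouch for the calls here. The offset fit removed per-library spline trends (5 df) of GC content, length and span, taken from GENCODE 29 for the longest transcript. Chain ratios used a pseudocount of 0.5. Glycine runs, TPM and motifs were computed from GENCODE 29 and RefSeq. Near-identical paralogs and overlapping genes can share reads. Members, classes and lists were chosen with earlier results of these data known. Every collagen gene is named, and in each pathway list the 3 genes with the smallest p. P4HA1, P4HA3, ITGA1, ITGA2, ITGB1, ITGA10 and ADGRG1 were named after their values were seen. So were PDIA3, SEC24D, FKBP7, MIA3, SEC23A, TMEM39A and KLHL12. Genes overlapping a collagen were named for that overlap. Replicate numbers did not pair the libraries. Library depth of 21.02 to 35.52 M reads puts 3 reads at 0.103 to 0.123 CPM. Alternatives were other scalings, DESeq2 1.42.0, filters, thresholds, offsets, a replicate block, a covariate and libraries left out.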

Additional observations from a re-analysis of the deposited data

Results flagged for a closer look

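Single libraries stood apart from the other 3 of their group 2 times in checks of 64 groups of gene levels and 14 groups of ratios, where chance flags about 1 in 20 groups. COL5A2 had 15.5 CPM in ERRg replicate 2, against 14.0 to 14.3 CPM in the other ERRg libraries. The log2 ratio of COL6A1 to COL6A2 was 0.86 in ERRg replicate 3, below the other ERRg libraries. Both values stayed on the same side of all GFP libraries as the rest of ERRg.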

How the results depend on the processing

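The 8 higher and 18 lower collagens were within 1.5 times those counts under DESeq2 size factors, upper-quartile factors, library totals, the DESeq2 Wald test, no low-count filter, coding genes alone and an adjusted p under 0.01. Upper-quartile factors, library totals and coding genes alone called COL27A1, COL4A5, COL9A1 and COL21A1 higher and lost COL9A3 and COL26A1, and the DESeq2 Wald test lost COL4A4 (adjusted p = 0.0533) and COL9A3 (0.0594). Without ERRg libraries 3 and 4, COL21A1 was called higher (edgeR adjusted p = 0.048) and COL8A2 lower (0.0217), and COL9A3 was lost (0.0585). With each library left out in turn, 8 to 9 were higher and 16 to 19 lower. The counts moved to 15 higher and 10 lower with GC, length and span offsets, 17 and 8 with a GC offset alone, 1 and 0 with the share outside exons as a covariate, and 2 and 7 when tested against a 1-unit log2 fold change. The replicate number as a block gave 8 higher and 18 lower, and with the offsets 13 and 10; libraries of the same number had correlations of -0.158 to 0.088, so the block is not a pairing. Leaving out ERRg libraries 1 and 2, or 3 and 4, was chosen after seeing the data, as were the alternatives for the pathway lists. Covering nuclear coding genes alone, the collagen share was 0.224% in ERRg and 0.275% in GFP; with each library left out it was 0.189% to 0.193% in ERRg and 0.247% to 0.251% in GFP.

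Log2 fold changes that reversed sign were, with the 3 offsets, COL9A2 0.28, COL9A3 0.43, COL6A1 0.31, COL8A2 0.54 and COL7A1 0.54, and with the block added COL9A2 0.29, COL9A3 0.47, COL6A1 0.31, COL8A2 0.53 and COL7A1 0.54. With GC alone they were COL4A1 0.18, COL4A2 0.33, COL9A2 0.29, COL9A3 0.51, COL6A1 0.38, COL8A2 0.63 and COL7A1 0.74. With the covariate (edgeR adjusted p = 0.907 to 1.0) they were COL27A1 -1.28, COL4A3 -0.53, COL4A4 -0.31, COL4A5 -0.68, COL9A1 -0.11, COL9A2 0.28, COL9A3 3.16, COL21A1 -0.44, COL17A1 -0.17, COL6A1 0.12, COL8A2 0.78 and COL28A1 -0.87. COL28A1 ranged from -0.06 (without GFP library 4) to 0.26 (without ERRg library 4) with each library left out, and was -0.02 without ERRg library 2 and -0.20 without ERRg libraries 1 and 2. The cause of these reversals was not tested. At this depth 10 collagens with reads had too few to be tested, and COL9A3 (6 to 36 reads per library) and COL26A1 (1 to 24) rest on few; depth was not varied, so low expression and depth were not told apart.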
